A study of Mus musculus with 27 samples.

Results

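The genes described here are 7 markers of the epicardium and the mesothelium: Tcf21, Tbx18, Wt1, Aldh1a2, Upk3b, Upk1b and Msln. They were found as the probe sets whose only annotated gene symbol is 1 of these names, which gave 13 probe sets, and they are 7 of the 18193 genes with 1 symbol on the array. Tcf21 and Upk3b were chosen by their low signal in the 4F line at day 11, with no numerical threshold, so their day 11 levels, and the day 11 levels of all 7 genes in 4F against the other lines, are given as descriptions without a test. The other comparisons were not used in that choice and were tested.

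The data are Affymetrix array signals of 3 mouse pluripotent lines: R1 embryonic stem cells (R1), H9 induced pluripotent stem cells reprogrammed with 3 transcription factors (3F), and 19BL induced pluripotent stem cells reprogrammed with 4 (4F). Day 0 cells were undifferentiated and had been cultured with LIF on feeder cells inactivated with mitomycin. Cells of day 5 and day 11 had differentiated without a directing factor as embryoid bodies, which are free-floating cell aggregates, in medium with 20% serum and no LIF. Each of the 9 groups of line and day held 3 biological replicates, 27 arrays in all, and this number limits the precision. Each kind of cell was represented by 1 line, so a difference between numbers of factors and a difference between lines cannot be told apart. Whether replicates came from separate cultures is not said beyond the word biological, so the p-values measure the spread between these samples.

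The epicardium is the outer cell layer of the heart. It arises from the proepicardium, a cluster of mesothelial cells near the venous pole, and gives rise to fibroblasts and smooth muscle of the heart. The mesothelium is the related flat epithelium that covers the lungs, gut and body wall. Wt1, Tcf21 and Tbx18 encode transcription factors used to mark epicardial cells, although each is also used by other mesoderm: Wt1 by kidney and gonad, Tcf21 by visceral mesenchyme, Tbx18 by several kinds of mesenchyme. Aldh1a2 encodes the main retinoic acid synthesising enzyme of the early embryo. Upk3b and Upk1b encode uroplakins, membrane proteins first described in the bladder lining and also made by mesothelium, and Msln encodes mesothelin, a surface protein of mesothelium.

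All values are log2 signals, on which 1 unit is a 2-fold difference. The words rose, fell and differed are kept for genes to which limma gave a Benjamini-Hochberg adjusted p under 0.05 over all 18193 genes and a change of at least 2-fold. Signals under 5.38, the value below which 40 percent of the table lies, are called dim. Levels are compared between groups for 1 probe set at a time and not between genes.

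In the mouse assembly GRCm38.p6, Tcf21 lies at chr10:22817263-22820143, Tbx18 at chr9:87702800-87731260, Wt1 at chr2:105126529-105173614, Aldh1a2 at chr9:71215789-71296243, Upk3b at chr5:136038496-136044993, Upk1b at chr16:38773182-38800203 and Msln at chr17:25748613-25754378. The RefSeq promoter table of that assembly, with 250 bases before and 50 after each gene's start, matched 4 of the 7 genes: Tcf21, Tbx18, Upk3b and Aldh1a2. The windows of Tcf21 and Upk3b are shown because these genes had the same day pattern in R1 and 3F, and that of Tbx18 because its day pattern was another. Capitals mark GATA letters (AGATAA, further AGATAG, further TGATAA and also TGATAG) and the letters GGAATG, known from binding by TEAD factors, each searched on both strands.
Tcf21 promoter, chr10:22820094-22820393, minus strand: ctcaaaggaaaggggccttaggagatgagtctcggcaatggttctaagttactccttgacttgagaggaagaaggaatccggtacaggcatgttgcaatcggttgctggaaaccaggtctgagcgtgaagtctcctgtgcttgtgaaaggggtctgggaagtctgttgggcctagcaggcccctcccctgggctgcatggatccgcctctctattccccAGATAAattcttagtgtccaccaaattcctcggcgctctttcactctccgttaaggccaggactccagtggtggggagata
Upk3b promoter, chr5:136038246-136038545, plus strand: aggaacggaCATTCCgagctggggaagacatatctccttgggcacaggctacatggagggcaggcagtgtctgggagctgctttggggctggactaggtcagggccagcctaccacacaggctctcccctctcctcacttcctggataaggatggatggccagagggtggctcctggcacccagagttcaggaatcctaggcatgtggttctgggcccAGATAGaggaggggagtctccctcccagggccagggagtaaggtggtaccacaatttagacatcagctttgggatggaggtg
Tbx18 promoter, chr9:87731211-87731510, minus strand: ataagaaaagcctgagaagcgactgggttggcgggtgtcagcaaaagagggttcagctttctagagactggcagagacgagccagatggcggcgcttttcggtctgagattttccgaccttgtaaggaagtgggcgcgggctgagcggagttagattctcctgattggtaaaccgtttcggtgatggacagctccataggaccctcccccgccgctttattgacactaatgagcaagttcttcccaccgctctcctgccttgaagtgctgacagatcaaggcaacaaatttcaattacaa

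The Tcf21 window held AGATAA at position -31 from the start, and the Upk3b window held AGATAG at -32 and, as CATTCC on its printed strand, the TEAD letters at -241. The Upk3b window also held the nuclear receptor letters AGGTCA at -155. None of these letters, nor the E-box CAGCTG, was in the windows of Tbx18 and Aldh1a2. Of 32851 mouse promoters of this length, 29.76% held a GATA match, 14.66% GGAATG, 16.3% CAGCTG and 16.26% AGGTCA, so the matches are common and are given as a description. The Aldh1a2 window differed in composition, with 78.0% G or C and 50 CpG, against 58.67% and 2 in Upk3b.

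At day 11, Wt1, Tcf21, Upk3b and Upk1b stood above their earlier levels in R1 and 3F, and in 4F only Wt1 and Tcf21 did so, at lower levels. Tbx18 had its highest mean in undifferentiated 3F cells. Aldh1a2 rose in R1. Msln stayed near the dim limit in every group.

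**Figure D1:**
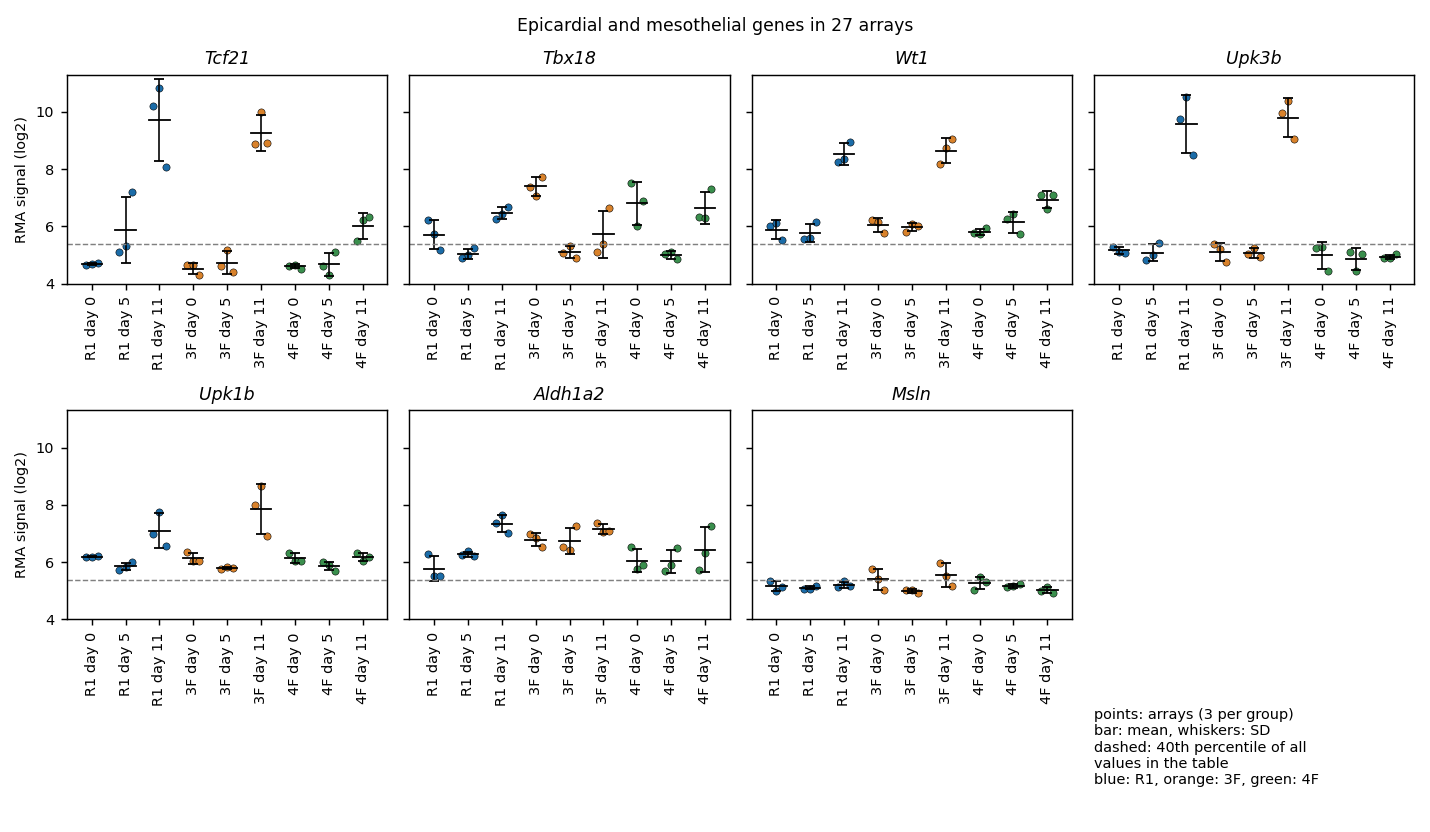
RMA log2 signal (vertical axis) of the 7 genes in the 9 groups of line and day (horizontal axis). Points are arrays, bars are means and whiskers are SDs of 3 arrays, with R1 in blue, 3F in orange and 4F in green; the dashed line is the dim limit of 5.38. At day 11, Upk3b lay between 8.49 and 10.51 in R1 and 3F and between 4.89 and 5.02 in 4F.

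Wt1 was measured with 1 probe set. In R1 its arrays read 6.01, 6.13 and 5.52 at day 0, 5.57, 5.60 and 6.14 at day 5, and 8.23, 8.36 and 8.95 at day 11. In 3F they read 6.21, 6.14 and 5.77, then 5.81, 6.09 and 5.99, then 8.17, 8.72 and 9.03. In 4F they read 5.76, 5.74 and 5.94, then 6.26, 6.41 and 5.73, then 7.09, 6.59 and 7.10. In all 3 lines the day 11 arrays were the highest and overlapped with neither earlier day. Between day 0 and day 11 Wt1 rose by 2.63 ± 0.24 (SE of the fit, 6.18-fold, adjusted p = 9.23e-09) in R1, by 2.60 ± 0.24 (6.05-fold, adjusted p = 7.54e-09) in 3F and by 1.11 ± 0.24 (2.17-fold, adjusted p = 0.000509) in 4F. The 4F call ended with limma array weights, which are estimated from each array's scatter about the fit, where the change was 0.83. With the RNA index, the 3′ minus 5′ difference of control probe sets, as a covariate the change was 2.22 (adjusted p = 0.00132). From day 5 to day 11 the rise was 2.74 in R1 and 2.67 in 3F, while the 4F change of 0.79 (adjusted p = 0.0109) was under 2-fold and passed with the RNA index (1.65, adjusted p = 0.00318). Over the first 5 days no line changed, with values between -0.11 and 0.32.

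Tcf21, a basic helix-loop-helix factor, was dim at the start. The brighter of its 2 probe sets read 4.64, 4.67 and 4.70 in R1 at day 0 and 10.21, 10.84 and 8.08 at day 11. In 3F it read 4.64, 4.63 and 4.29 at day 0 and 8.88, 10.00 and 8.92 at day 11, and in 4F 4.61, 4.66 and 4.52 at day 0 and 5.49, 6.22 and 6.33 at day 11. The arrays of R1 and 3F overlapped at day 11, all 6 were above the 3 arrays of 4F, and these in turn were above all earlier 4F arrays. As a description, the day 11 mean exceeded that of day 0 by 5.04 in R1 (32.9-fold), 4.74 in 3F (26.8-fold) and 1.42 in 4F (2.67-fold). The second probe set stayed between 4.60 and 5.54 on all 27 arrays, and the mean of both probe sets gave 2.56, 2.52 and 0.83.

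At day 5, which was tested, R1 arrays read 5.11, 5.31 and 7.19 for Tcf21, against 4.62, 5.17 and 4.39 in 3F and 4.61, 4.30 and 5.09 in 4F. All R1 arrays were above their day 0 level, but 1 of them, replicate 3, was far above the other two. The change from day 0 to day 5 in R1, 1.20 ± 0.52 (adjusted p = 0.0792), did not pass. It was 0.53 (adjusted p = 0.49) without replicate 3 of day 5, and it passed without replicate 1 (1.58, adjusted p = 0.0368). Replicate 3 also differed most from its group over all genes, with a mean SD of difference of 0.43 to the other arrays against 0.26 between those, and its feeder and fibroblast genes averaged 7.27 against 5.91 and 6.07. In 3F and 4F the values were 0.21 and 0.07.

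Upk3b was chosen by its low signal in 4F at day 11, so its gap between lines there is a description. In R1 its arrays read 5.28, 5.10 and 5.08 at day 0, 4.84, 4.99 and 5.41 at day 5, and 9.73, 10.51 and 8.49 at day 11. In 3F they read 5.37, 5.20 and 4.75, then 5.03, 5.26 and 4.92, then 9.96, 10.38 and 9.03. In 4F they read 5.23, 5.29 and 4.45, then 5.09, 4.42 and 5.05, then 4.89, 4.91 and 5.02. The gene was at or below the dim limit on all arrays of days 0 and 5 except replicate 3 of R1 at day 5, which was just above it, bright on the 6 day 11 arrays of R1 and 3F, and dim on the 3 of 4F. The second probe set showed the same split, with 8.80, 9.69 and 7.86 in R1, 8.94, 9.56 and 8.36 in 3F and 5.13, 4.91 and 5.41 in 4F at day 11. As a description, the day 11 mean exceeded that of day 0 by 4.42 in R1 (21.4-fold) and 4.68 in 3F (25.6-fold) and differed from it by -0.05 in 4F. In these bulk samples fewer cells of a type and less RNA per cell cannot be told apart.

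Upk1b, the tetraspanin uroplakin, was measured with 4 probe sets. In the brightest, 3F read 6.34, 6.02 and 6.03 at day 0, 5.77, 5.84 and 5.81 at day 5, and 8.01, 8.64 and 6.92 at day 11. R1 read 6.18, 6.17 and 6.21, then 5.74, 5.82 and 6.00, then 6.99, 7.76 and 6.56, while 4F stayed between 5.70 and 6.34 on its 9 arrays. The day 11 arrays of R1 and 3F were thus above all their earlier ones, and those of 4F were within the range of day 0. From day 5 to day 11 Upk1b rose by 2.06 ± 0.28 in 3F (4.16-fold, adjusted p = 5.14e-06) and by 1.25 ± 0.28 in R1 (2.38-fold, adjusted p = 0.00181). The R1 rise was under 2-fold without replicate 2 of day 11 (0.92, adjusted p = 0.0208). Against day 0 it rose by 1.73 in 3F (adjusted p = 2.46e-05), and the R1 change of 0.92 (adjusted p = 0.0106) was under 2-fold. That change passed with the mean of the 4 probe sets (1.42, adjusted p = 0.000508), with array weights (1.03) and without replicate 3 of day 11 (1.19), and it was 0.59 without replicate 2. In 4F the changes were -0.27 to 0.31.

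The probe sets of Upk1b disagreed in 4F at day 11. The sets 1435831_at and 1455464_x_at followed the brightest one and read 5.02 to 5.75 and 5.39 to 5.98 there. The probe set 1439760_x_at read 6.94, 6.93 and 6.49 in 4F at day 11 against 5.40, 5.08 and 5.07 at day 0. It was tested in a limma fit of all probe sets, with adjustment over 34945 probe sets. Its change from day 0 to day 11 was 1.61 ± 0.22 in 4F (adjusted p = 3.43e-06). In R1 and 3F the change was 1.18 each (adjusted p = 0.000139 and 0.000134). An _x_ set holds probes that may also match other transcripts, and 1455464_x_at is of the same kind.

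**Figure D2:**
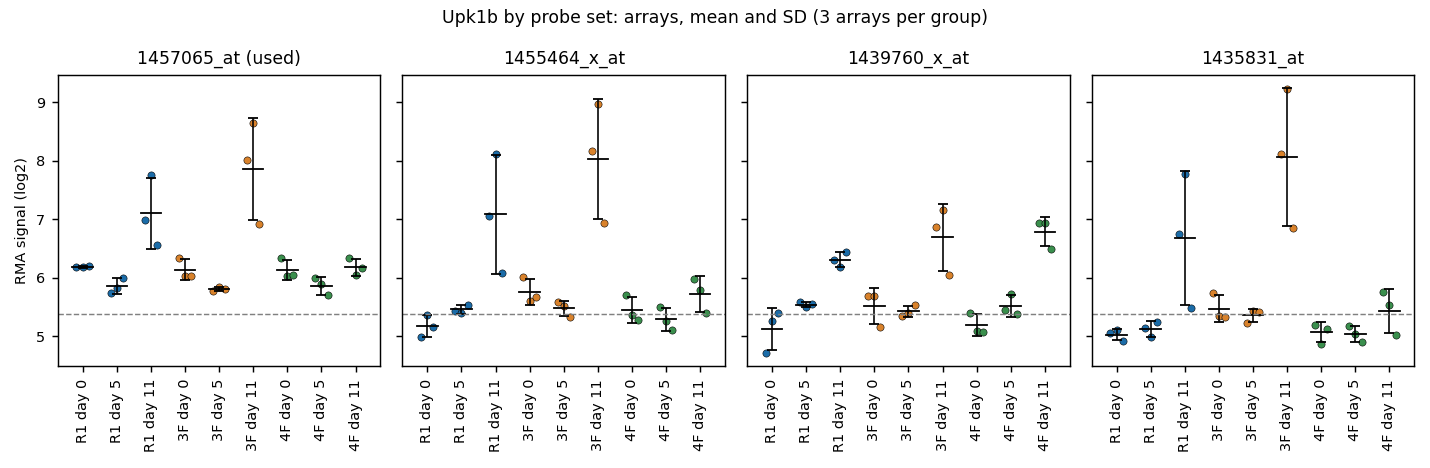
RMA log2 signal (vertical axis) of the 4 Upk1b probe sets in the 9 groups (horizontal axis), with arrays as points and mean and SD of 3 arrays as bar and whiskers. In 4F at day 11 the set 1439760_x_at lies between 6.49 and 6.94, above its day 0 arrays, while the set used for the gene lies between 6.04 and 6.33.

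Tbx18, a T-box factor, followed another course. In 3F its arrays read 7.36, 7.07 and 7.74 at day 0, 5.08, 5.30 and 4.90 at day 5, and 5.10, 5.38 and 6.65 at day 11. In 4F they read 7.50, 6.00 and 6.90, then 5.04, 5.09 and 4.84, then 6.31, 6.30 and 7.29, and in R1 6.23, 5.72 and 5.19, then 4.88, 5.01 and 5.23, then 6.26, 6.43 and 6.68. All 9 day 5 arrays were dim, and no array of day 5 in 3F or 4F reached a day 0 array of its line. By day 5 Tbx18 fell by 2.30 ± 0.36 in 3F (4.92-fold, adjusted p = 3.77e-05) and by 1.81 ± 0.36 in 4F (3.5-fold, adjusted p = 0.000958); the R1 value was -0.67 (adjusted p = 0.167). From day 5 to day 11 it rose by 1.64 ± 0.36 in 4F (adjusted p = 0.000976) and by 1.42 ± 0.36 in R1 (adjusted p = 0.00491), and the 3F value was 0.62 (adjusted p = 0.19). In 3F it was still 1.68 below day 0 at day 11 (change -1.68 ± 0.36, adjusted p = 0.000534), which became -0.98 with the RNA index as a covariate. That covariate also brought calls: 1.31 in 3F from day 5 to day 11 (adjusted p = 0.00411), the R1 value from day 0 to day 11, 0.74 without it, passed (0.00117), and in 4F from day 0 to day 11 1.95 (0.0269) in place of -0.17. The second Tbx18 probe set was dim on all arrays, and averaging both brought these changes under 2-fold except the 3F fall from day 0 to day 5 (-1.36).

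In the undifferentiated cells Tbx18 was higher in 3F than in R1 by 1.68 ± 0.36 (3.2-fold, adjusted p = 0.00791), a call that ended without replicate 3 of R1 (adjusted p = 0.0573) or of 3F (0.0657), with the RNA index (1.13, adjusted p = 0.0837) or with the mean of probe sets (0.98, under 2-fold). Beside it, 5 of 15 measured feeder and fibroblast genes were higher in 3F than in R1 at day 0 and 0 were lower. Of all genes, 3.09% were called there. The median difference of the 15 genes was 1.61 against a value near 0 over all genes. The mean of these 15 genes ran from 10.77 to 11.60 over the 3F arrays, from 9.94 to 11.03 in 4F and from 9.50 to 10.02 in R1, and none of them was dim on all day 0 arrays of a line. At day 5 the mean was 5.91 to 7.27 over all arrays. Falls from day 0 to day 5 were called for 11, 13 and 14 of the 15 genes in R1, 3F and 4F, and 1 gene rose in R1. Of all genes, 14.7%, 12.4% and 7.07% were called. At day 11 the mean of the list was 10.32 to 10.89 in R1, 10.26 to 10.97 in 3F and 8.93 to 10.19 in 4F. The single genes went both ways from day 0 to day 11: 8 rose and 6 fell in R1, 5 and 7 in 3F, and 3 and 8 in 4F. The share of all genes called was 23.6%, 23.6% and 20.8%. The part of feeder or fibroblast RNA in the Tbx18 levels was not tested.

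**Figure D3:**
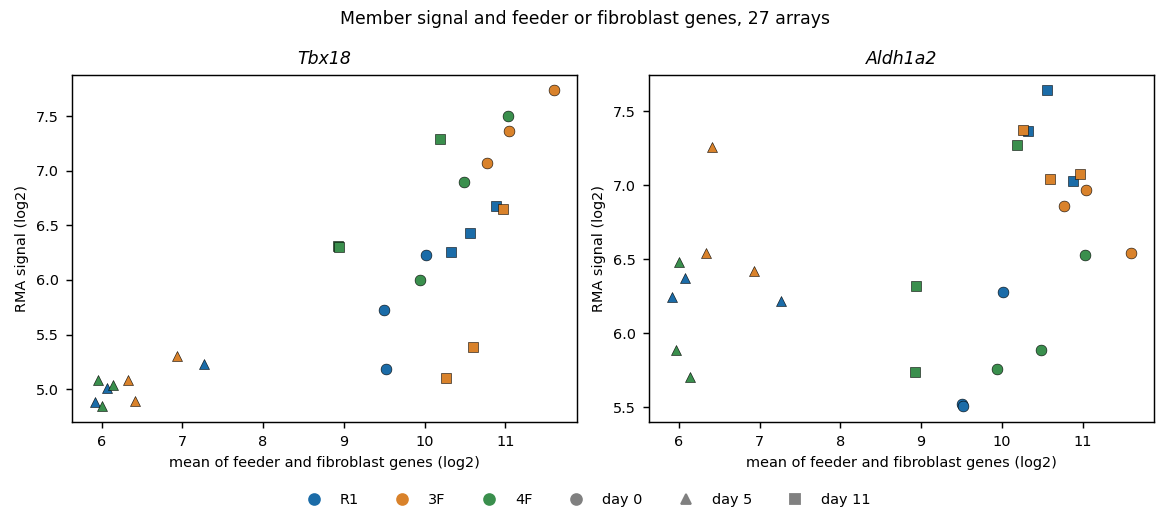
RMA log2 signal of Tbx18 and Aldh1a2 (vertical axes) against the mean log2 signal of 15 feeder and fibroblast genes (horizontal axes), 1 point for each of 27 arrays, coloured by line and shaped by day. All day 5 arrays have a list mean of 7.27 or less and a dim Tbx18 signal, and the 3 arrays of 3F at day 0 have the highest Tbx18 mean, 7.39.

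Aldh1a2 was the member with the smallest spread of group means after Msln. In R1 its arrays read 6.28, 5.52 and 5.51 at day 0, 6.24, 6.37 and 6.21 at day 5, and 7.37, 7.64 and 7.03 at day 11. In 3F they read 6.97, 6.86 and 6.54, then 6.54, 6.42 and 7.26, then 7.37, 7.04 and 7.07, and in 4F 6.53, 5.76 and 5.88, then 5.71, 5.89 and 6.48, then 5.73, 6.32 and 7.27. The R1 arrays separated by day from day 5 to day 11, and the 4F arrays of different days overlapped. Aldh1a2 rose between day 0 and day 11 by 1.58 ± 0.31 in R1 (2.99-fold, adjusted p = 0.000205), and from day 5 by 1.07 ± 0.31 (adjusted p = 0.0123), a call that ended without replicate 2 of day 11 (0.92, adjusted p = 0.0628). In 3F and 4F no change passed, with values of -0.05 to 0.42. At day 0 it was higher in 3F than in R1 by 1.02 ± 0.31 (adjusted p = 0.0478), and this call was not stable: without each of the 6 arrays in turn, except replicate 1 of R1 (0.0116), the adjusted p was 0.0992 to 0.229, and with the replicate number as a block it was 0.0501.

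Msln, whose product binds the surface mucin encoded by Muc16, read between 4.92 and 5.97 on the 27 arrays and was called in no comparison. Its highest mean was 5.55 in 3F at day 11, where the arrays read 5.97, 5.51 and 5.16. The change from day 5 in 3F, 0.55 ± 0.17 (adjusted p = 0.0158), was under 2-fold.

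**Figure D4:**
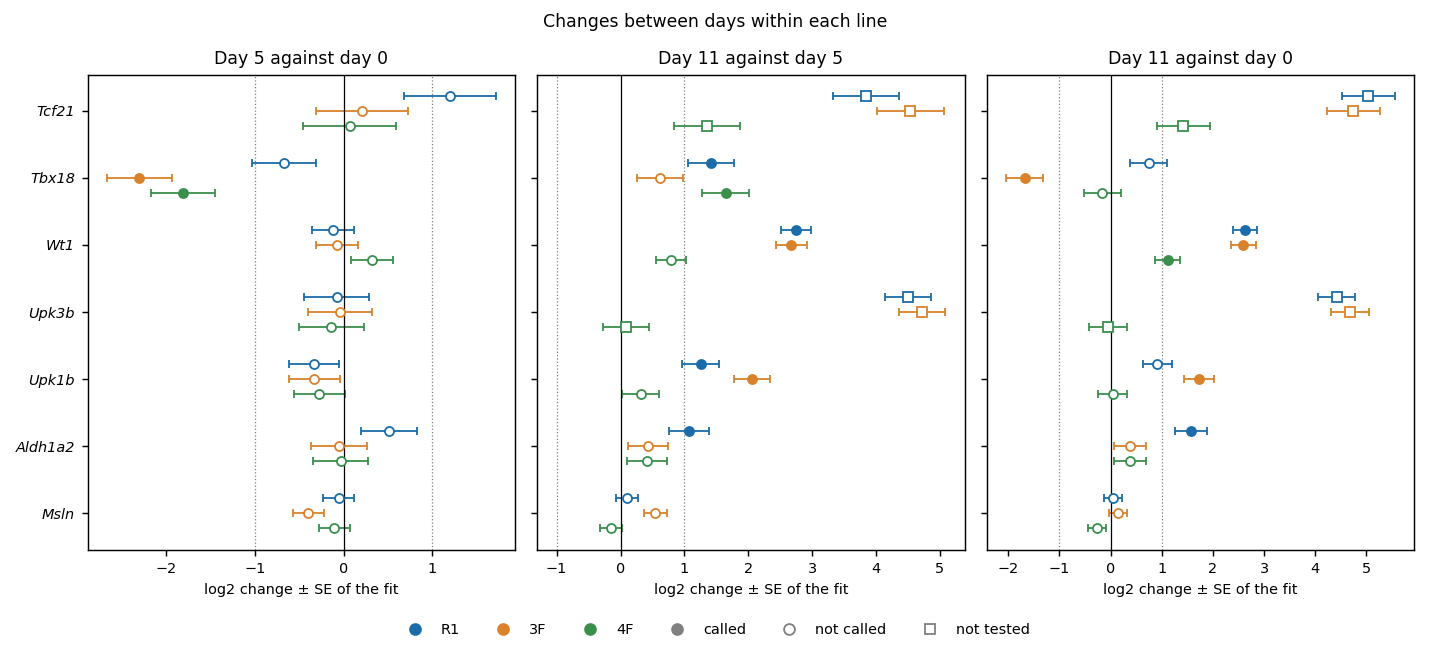
Log2 change between days (horizontal axes) of the 7 genes (vertical axis) in R1 (blue), 3F (orange) and 4F (green), with the SE of the limma fit as whiskers. Filled circles were called, open circles were not, squares were not tested, and dotted lines mark 2-fold; from day 0 to day 11 the filled points are Wt1 in all lines, Aldh1a2 in R1, Upk1b in 3F and, below 0, Tbx18 in 3F.

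Counted over comparisons, and leaving out the untested values, 0 of the 7 genes were called in R1 from day 0 to day 5, where 14.7% of all genes were, and 1 of 7 in each of 3F (12.4%) and 4F (7.07%), Tbx18 both times. From day 0 to day 11, 2 of 5 tested genes were called in R1 (23.6% of all genes), 3 of 5 in 3F (23.6%) and 1 of 5 in 4F (20.8%). From day 5 to day 11 the counts were 4 of 5 in R1 (11.6%), 2 of 5 in 3F (16.9%) and 1 of 5 in 4F (15.8%). The 4 in R1 became 2 without replicate 2 of day 11.

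Between lines, 2 of 7 genes differed at day 0 between 3F and R1 (3.09% of all genes), Tbx18 and Aldh1a2. None was called in 4F against R1 (1.12%) or 4F against 3F (1.98%) at day 0, nor at day 5 in 3F against R1 (0.374%), 4F against R1 (5.45%) or 4F against 3F (7.48%). At day 11 the 3F and R1 lines were compared with a test for the 5 genes other than Tcf21 and Upk3b, whose day 11 levels entered their choice, and 0 of 5 differed (1.02% of all genes). The 3F minus R1 values there were 0.13 for Wt1 (95% interval -0.37 to 0.62), 0.76 for Upk1b (0.17 to 1.35) and -0.74 for Tbx18 (-1.50 to 0.01); as a description they were -0.45 for Tcf21 and 0.21 for Upk3b. A p that misses the threshold does not show equal levels, and without replicate 3 of 3F Upk1b (1.22, adjusted p = 0.00467) and Tbx18 (-1.21, adjusted p = 0.0367) passed, as did Tbx18 with the RNA index (-1.35, adjusted p = 0.0229).

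Differences in change between lines were tested where they did not involve 4F at day 11. From day 0 to day 5 none of the 7 genes was called for 4F minus R1 (3.64% of all genes), 4F minus 3F (3.47%) or 3F minus R1 (0.374%), and from day 5 to day 11 none of the 5 genes other than Tcf21 and Upk3b for 3F minus R1 (0.137%). From day 0 to day 11, 1 of these 5 was called for 3F minus R1 (1.5%): Tbx18 changed by -1.68 in 3F and 0.74 in R1, a difference of -2.42 ± 0.51 (adjusted p = 0.0172). This call ended without replicate 3 of R1 at day 0 (adjusted p = 0.0544), replicate 3 of 3F at day 0 (0.0677) or replicate 1 of 3F at day 11 (0.0596). In the same comparison 2 of 15 feeder and fibroblast genes were called, both lower, and the list median was -1.33 against -0.05 over all genes.

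Described without a test, 4F at day 11 lay below R1 by 24.9-fold in Upk3b, 13.0-fold in Tcf21, 3.0-fold in Wt1 and 1.9-fold in Upk1b, and below 3F by 28.9-fold, 9.5-fold, 3.28-fold and 3.21-fold. For these 4 genes no 4F array reached an array of the other lines in the probe set used. How many of all genes separate in this way was not counted, and Tcf21 and Upk3b were chosen by this gap. In the Upk1b set 1439760_x_at the direction was the other one against R1: the 4F arrays, at 6.49 to 6.94, lay above those of R1, at 6.18 to 6.43, and overlapped those of 3F, at 6.04 to 7.15. Msln was dim on all arrays of 4F (4.93 to 5.13) and of R1 (5.13 to 5.33) and read 5.16 to 5.97 in 3F. At signals this low the order of the arrays is not read as a difference. Aldh1a2 and Tbx18 overlapped between 4F and both other lines. The RNA index, the 3′ minus 5′ difference of Actb and Gapdh control probe sets, which is larger where 5′ ends are lost, was 2.69 ± 0.23 (SD, n = 3) in 4F at day 11 against 1.94 ± 0.20 in R1 and 1.55 ± 0.23 in 3F. With this index as a covariate the 4F minus R1 value was -4.85 in place of -4.64 for Upk3b, -3.36 in place of -3.69 for Tcf21, and -0.99 in place of -1.59 for Wt1. The index was 2.44 to 2.89 in 4F at day 11 and at most 2.16 on all other arrays. Index and group therefore cannot be told apart here, and these values do not show the gap free of RNA quality.

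The 7 genes did not vary as 1 block. Across the 27 arrays Tcf21 correlated with Upk3b at r = 0.94, with Wt1 at 0.89 and with Upk1b at 0.83, and Upk3b with Upk1b at 0.91; the points share the same 9 groups, and Tcf21 and Upk3b were chosen by the day 11 arrays that are among them. Over the 18 arrays of days 0 and 5 alone, r was 0.43 for Tcf21 with Upk3b, -0.01 with Wt1 and -0.17 with Upk1b, and 0.35 for Upk3b with Upk1b, at signals that were mostly dim for Tcf21 and Upk3b. After each group's mean was taken off, with all 27 arrays, r was 0.79 for Tcf21 with Upk3b and 0.80 for Upk3b with Upk1b, and was -0.11 for Tcf21 with Wt1. Replicate 3 of R1 at day 11 had the lowest Tcf21, Upk3b and Upk1b of its group and the highest Wt1 and Tbx18, and it was also the array of that group farthest from the others over all genes (0.44 against 0.23). Without it the R1 day 11 mean exceeded that of day 0 by 5.85 for Tcf21 and 4.97 for Upk3b, and the Wt1 rise was 2.41 (adjusted p = 1.39e-07). Tbx18 correlated with Tcf21 and Upk3b at r = 0.03 each.

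The genes most like each member over the 27 arrays, by Pearson's r, are given as a description. They were taken from the 18193 genes with provisional names passed over, and the ranks below hold among the rest. Tmem204 was first for Tcf21 (r = 0.96) and second for Upk3b (0.96), with means of 8.04 in R1, 8.21 in 3F and 6.17 in 4F at day 11 and 5.88 to 5.93 at day 0. Next for Tcf21 came Ednrb, the endothelin B receptor gene, (0.96) and Icam2, an endothelial and blood cell adhesion gene (0.95). For Upk3b, Pnoc, the gene of the nociceptin precursor, was first (0.98) and Negr1, a neuronal adhesion gene, came after Tmem204 (0.96), with Pnoc also second for Upk1b (0.92) behind Nepn (0.94) and ahead of the potassium channel gene Kcnj8 (0.91). For Wt1 the first were Tmtc1 (0.97), Cpz (0.97) and Tmtc2 (0.97). Tbx18 was most like Olr1 (0.90), Prrx1, a transcription factor gene of mesenchyme (0.90), and Csgalnact1 (0.89), and Prrx1 averaged 10.90 in 3F, 9.67 in 4F and 9.04 in R1 at day 0. Aldh1a2 was most like Mob1a (0.88), Rnf14 (0.87) and Abhd4 (0.87), and Msln most like Rnf112 (0.76), Dlx6os2 (0.74) and Cd209c (0.72). Replicate 1 of 3F at day 11 had the highest value of Msln (5.97), Rnf112 (6.80), Dlx6os2 (4.39) and Cd209c (7.96). Its part in these r values was not tested, and Dlx6os2 was dim on all arrays.

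Other epicardial and mesothelial genes were read from a list of 22, all of them measured. From day 0 to day 11, 7 rose and 2 fell in R1, 8 rose and 2 fell in 3F, and 5 rose and 2 fell in 4F, with medians of 0.37, 0.33 and 0.48 against -0.04, 0.01 and -0.11 over all genes, of which 23.6%, 23.6% and 20.8% were called. Bnc1, basonuclin 1, a zinc finger factor of mesothelium and other epithelia, rose by 4.75 ± 0.53 in R1 (adjusted p = 1.81e-07) and by 3.41 ± 0.53 in 3F (adjusted p = 1.29e-05). Its day 11 arrays ran from 8.57 to 10.20 in R1, 8.99 to 10.23 in 3F and 5.34 to 7.40 in 4F. Mab21l2 rose in every line, by 3.44 in R1, 3.23 in 3F and 1.67 in 4F. Krt19, a keratin of simple epithelia, rose by 2.20 in R1, 1.18 in 3F (adjusted p = 0.0281, not past the threshold in 8 alternatives) and 3.84 in 4F, and was at 10.31, 10.05 and 10.04 in R1, 3F and 4F at day 11, so here the lines did not separate as they did for Upk3b. Krt7 rose by 2.07 in R1, 1.41 in 3F and 2.12 in 4F (1.19 with the RNA index, adjusted p = 0.0571), and Nkain4 rose by 1.26 in R1 and 2.15 in 3F, with 0.37 (adjusted p = 0.192) in 4F. The genes named here were mostly those that rose, while 2 of the 22 fell in each line. Among the genes that fell, Calb2 did so in 4F, a call that ended in 6 alternatives and turned sign with the RNA index. Muc16, whose product binds mesothelin, Sema3d and Scx were dim on all arrays.

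**Figure D5:**
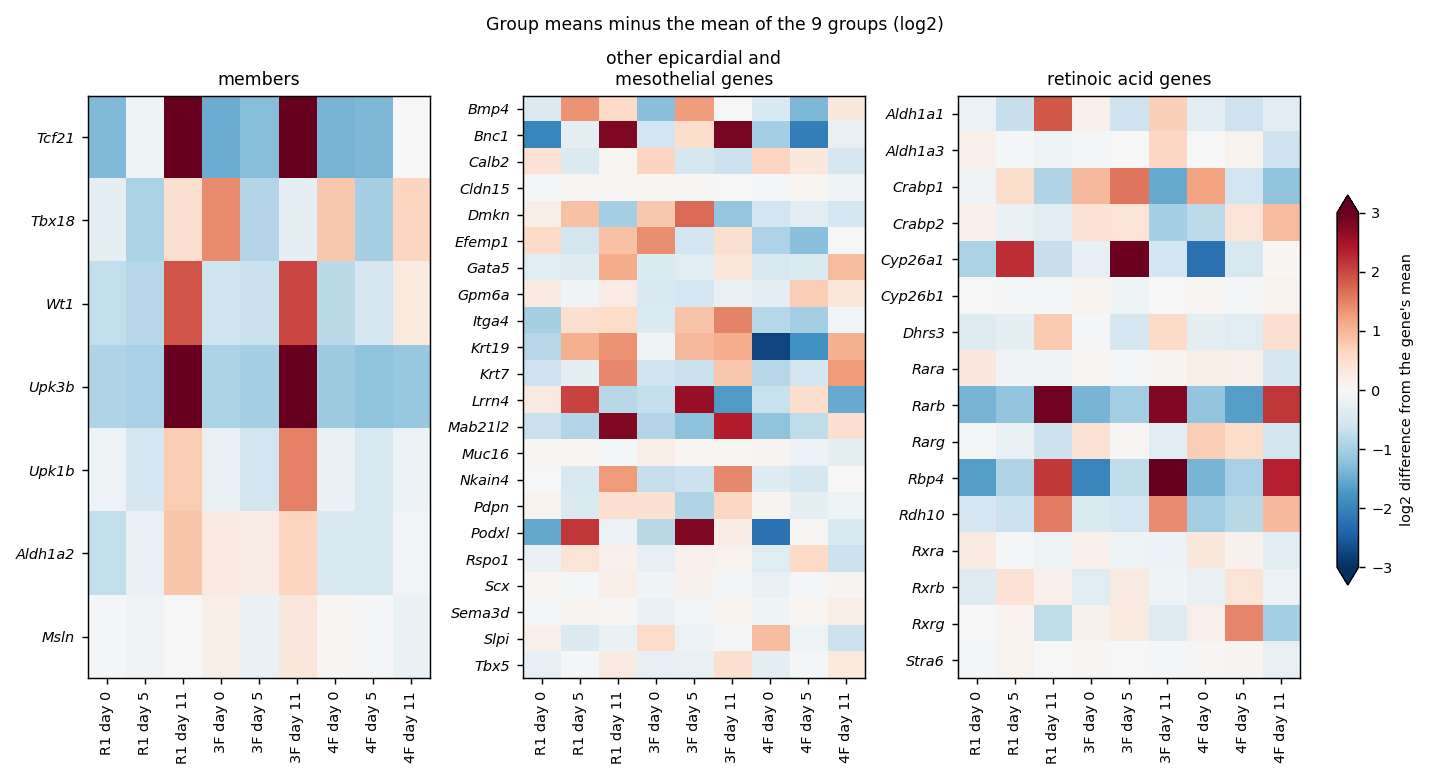
Group means of the 7 genes, of 22 other epicardial and mesothelial genes and of 16 retinoic acid genes (vertical axes) in the 9 groups (horizontal axes), as log2 differences from each gene's mean over the groups, with red above and blue below it. Tcf21, Upk3b, Bnc1 and Mab21l2 are highest in R1 and 3F at day 11, while Rarb and Rbp4 are high at day 11 in all 3 lines.

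At day 5, 0 of the 22 genes were higher and 6 lower in 4F than in R1 (5.45% of all genes called), 1 was higher and 6 lower than in 3F (7.48%), and 0 differed between 3F and R1 (0.374%). The list medians were -0.05 and -0.02 for 4F against R1 and 3F, beside 0.03 over all genes in both cases. The 4F minus R1 value was -2.86 ± 0.43 for Krt19 (adjusted p = 0.00014), -2.12 ± 0.25 for Podxl, the podocalyxin gene of polarised epithelia (adjusted p = 1.47e-05), and -2.68 ± 0.43 for Bmp4, a growth factor gene of lateral mesoderm (adjusted p = 0.000267; 0.0536 in a fit of the compared arrays alone). Among the 6 genes lower in 4F than in 3F, the 4F minus 3F value was -2.60 ± 0.53 for Bnc1 (adjusted p = 0.00137), beside -2.79 for Krt19 and -2.76 for Podxl. From day 0 to day 5, 5 genes rose and 0 fell in R1, 3 rose and 3 fell in 3F, and 3 rose and 1 fell in 4F, Podxl rising in all 3 lines by 3.68, 3.63 and 2.25.

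Of 18 listed genes of retinoic acid supply, carriage, breakdown and reception, 16 were measured. By day 11, against day 0, 5 rose and 0 fell in R1, 3 rose and 2 fell in 3F, and 5 rose and 3 fell in 4F, where 23.6%, 23.6% and 20.8% of all genes were called. The list medians, 0.00, -0.04 and 0.03, lay near those of all genes, -0.04, 0.01 and -0.11. Rarb, a retinoic acid receptor gene that retinoic acid is known to induce, rose by 4.31 ± 0.31 in R1 (adjusted p = 4.65e-10), 4.16 ± 0.31 in 3F (adjusted p = 4.91e-10) and 3.32 ± 0.31 in 4F (adjusted p = 1.81e-08). Rdh10, whose product makes the substrate of Aldh1a2, rose by 2.03 in R1 and 1.84 in 3F, and it also rose in 4F (adjusted p = 2.19e-07). Rbp4, the carrier of retinol in serum, rose by 3.77, 5.15 and 3.73, and the 4F rise ended with the RNA index (1.79, adjusted p = 0.171). The day 11 arrays of Rarb were at 8.60 to 9.12 in R1, 7.71 to 9.66 in 3F and 7.59 to 8.38 in 4F. The 4F arrays thus overlapped those of 3F, unlike in Tcf21 or Upk3b, and lay below all those of R1, as in these genes. Cyp26a1, which breaks retinoic acid down, rose at day 5 by 3.16 in R1 and 3.19 in 3F, and at day 5 the 4F minus 3F value was -3.42 ± 0.58 (adjusted p = 0.000242). In 4F its change from day 0 to day 5 was also called, and that call ended in 7 alternatives. Its rise from day 0 to day 11 in 4F was called too and turned sign with the RNA index.

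The other uroplakins, Upk1a, Upk2 and Upk3a, are plaque proteins of the bladder lining. None of the 3 was called in any comparison run with limma, and their mean level was 6.43 to 6.76 over the 9 groups. The next counts stand beside 23.6%, 23.6% and 20.8% of all genes called from day 0 to day 11 in R1, 3F and 4F. Among 8 bladder-type epithelial genes, 3 rose and 2 fell in R1, 1 rose and 1 fell in 3F, and 3 rose and 2 fell in 4F from day 0 to day 11. Of 8 measured kidney and gonad genes 1 rose in each line, Gata4, which is also a gene of the heart and proepicardium, and 2, 1 and 2 (Amhr2 in all lines, Nphs1 in R1 and 4F) fell in R1, 3F and 4F, with a median of 0.01 in R1. Of 9 somite genes 1, 1 and 0 rose and 1 fell in each line, which is near or below these shares, and 4 or 5 of them were dim on all arrays of a group. Of 7 splanchnic and visceral mesoderm genes 4, 3 and 4 rose in R1, 3F and 4F and 0 fell, with Hand2 up by 6.13, 5.75 and 4.68. These lists hold the other tissues that use Wt1, Tcf21, Tbx18 or the uroplakins, and their part in the levels of the 7 genes was not tested.

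Pluripotency genes show the state of the lines beside these results. All 10 were measured, with a mean of 12.60 in R1, 12.57 in 3F and 13.05 in 4F at day 0, and 8.12, 7.46 and 10.29 at day 11. Replicate 1 of 3F at day 11 stood farthest from its group of all 27 arrays, with a mean SD of difference of 0.68 against 0.51 between the other two. Without it the 3F day 11 mean exceeded that of day 0 by 4.94 for Tcf21 and 4.60 for Upk3b, and the Wt1 rise was 2.83.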

How the data were processed

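Total RNA of 27 samples was extracted on Qiagen RNeasy columns and labelled as biotinylated cRNA for Affymetrix arrays, per the labels' protocols. The deposited values are log2 signals made with RMA by the authors, per the submitters' processing notes; its version is not given in the sources used here. No value was changed; the lowest was 3.00, the highest 15.67, and the median of an array lay between 5.91 and 6.10. Replicate arrays differed pairwise by an SD of 0.315 (median), and arrays carry no read depth.

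Of 45101 probe sets, 34945 had 1 symbol in the platform annotation, 932 several and 9160 none, and 64 were controls. Each gene took its probe set with the brightest mean. The fit, in limma 3.58.1 under R 4.3.3, gave each group its own mean, used the 27 arrays together and was tested on simulated data. The limma tests of genes across 3 arrays per group use Benjamini-Hochberg adjustment over 18193 genes. The fit of all probe sets adjusts over 34945 probe sets, and the alternative without dim genes over the genes kept. Figures used matplotlib 3.10.9.

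The 7 members and the lists (other epicardial and mesothelial, retinoic acid, other uroplakin, feeder and fibroblast, kidney and gonad, somite, splanchnic mesoderm, bladder-type epithelium and pluripotency genes) were chosen with earlier results of these data known. The fit also tested Tcf21 and Upk3b between 3F and R1 at day 11; neither was called, and they are left out of those counts. Named genes are all members, the 3 genes most like each by Pearson's r without provisional names, and up to 4 called genes per list and comparison with the largest changes, besides defining markers. Same-numbered replicates deviated together (all 3 r over 0.1) in 3 of 18 comparisons of 2 groups, namely day 11 against day 5 in 4F, day 0 between 4F and R1, and day 11 between R1 and 3F; the block changed no member call there. Alternatives were other normalizations, filters, probe set rules, thresholds, array weights, a replicate block, the RNA index as a covariate, the compared arrays alone and each array left out in turn.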

Additional observations from a re-analysis of the deposited data

Results flagged for a closer look

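The change of Tbx18 from day 0 to day 11 differed between 3F and R1 by -2.421 (log2, 3F minus R1), by a test of the difference itself in limma (adjusted p = 0.0172). In 3F the arrays went from 7.07 to 7.74 at day 0 to 5.10 to 6.65 at day 11, and in R1 from 5.19 to 6.23 to 6.26 to 6.68. The mean of 15 feeder and fibroblast genes was 11.14 in 3F and 9.68 in R1 at day 0 and 10.61 and 10.59 at day 11, and its part in the difference was not tested.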

How the results depend on the processing

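Of 18 called changes of the 7 genes, 8 stayed past the threshold in every alternative run. The count of called genes moved by more than 1.5 times as follows. With array weights it was 0 in 4F from day 0 to day 11, 1 in 4F against R1 at days 0 and 5, 1 in 4F against 3F at day 5, and, for 3F minus R1, 1 for the change to day 5 and 2 to day 11. With the RNA index it was 2 in 4F from day 0 and from day 5 to day 11, 0 in 3F against R1 at day 0, 1 at day 11 and 1 for the change to day 5. With the mean of probe sets it was 0 in 4F from day 0 to day 5, 0 in 4F from day 5 to day 11 and 0 in 3F against R1 at day 0; without a minimum fold it was 2 in 4F from day 5 to day 11. For 3F against R1 at day 0 it was 1 in place of 2 with median centring, quantile normalization, all probe sets, the replicate block (Aldh1a2, adjusted p = 0.0501) or an adjusted p under 0.01. With the compared arrays alone it was 1 for the change of 3F minus R1 to day 5 and 0 to day 11, where an adjusted p under 0.01 also gave 0. The block changed no other member call.

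With single arrays left out the count ran from 0 to 1 in R1 from day 0 to day 5, 2 to 4 in R1 from day 5 to day 11, 0 to 2 in 3F against R1 at day 0 and at day 11, 0 to 1 in 4F against R1 at day 0, and 0 to 2 and 0 to 1 for the change of 3F minus R1 from day 0 and from day 5 to day 11. The value of Tcf21 for the last of these, 0.69, ran from -0.12 (without replicate 3 of R1 at day 11) to 1.26. With the RNA index 5 values turned sign among those of at least 0.5 or called in some setting: Aldh1a2 in 4F against 3F at day 11 (0.11), and in 4F from day 0 to day 11 Tbx18 (1.95, adjusted p = 0.0269, in place of -0.17; -0.57 to 0.19 with single arrays left out), Calb2 (0.71), Cyp26a1 (-0.15) and Rarg (0.64). In 4F that index and the day move together (1.31 at day 0 and 2.69 at day 11); the cause of these turns was not tested. Dim signals limit Msln, the second probe sets of Tcf21 and Tbx18, and day 0 levels of Tcf21 and Upk3b, where array signal near background hides changes.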

Other observations

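In R1 at day 11 Aldh1a1, another retinaldehyde dehydrogenase gene, ranged from 5.61 to 7.30 and had risen from day 0 by 2.04 (limma adjusted p = 3.81e-05), while in 4F its arrays were at 3.89 to 4.98. Crabp2, which carries retinoic acid to the nucleus, fell in 3F from day 0 to day 11 (-1.44 ± 0.23) and was higher in 4F at day 11 than at day 0 by 1.74 ± 0.23 (adjusted p = 1.66e-06; 0.109 with the RNA index as a covariate).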
